A study of Mus musculus with 33 samples.

Results

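The genes described here are 62 of the 37583 gene IDs counted in mouse cells on their way from embryonic fibroblasts to induced pluripotent stem (iPS) cells. They were chosen for being high in SSEA1-positive (SSEA1+) cells in the middle of reprogramming and low at both ends. A gene was taken when its mean level was at least 10 CPM (reads of the gene, scaled to a total of 1e+06 reads counted in genes) in SSEA1+ cells of both d6 and d9. Both means also had to be at least 8 times the fibroblast mean plus 0.5 CPM and at least 8 times the iPS SSEA1+ mean plus 0.5 CPM. Symbols with 9 prefixes (such as those of keratins, collagens and integrins) were left out, which removed Mmp28, Itgb4 and Cldn11. The levels of those 4 groups chose the genes, so their high and low values there are a description and not a finding. Of the 62, 1 is a predicted gene that is counted but not named.

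The study sequenced poly-A RNA of reprogramming intermediates in 33 libraries, 3 in each of 11 groups. Cells were sorted by flow cytometry into SSEA1+ and SSEA1- fractions at d3, d6, d9 and d12 and at the iPS stage, and the remaining group was mouse embryonic fibroblasts (MEF). All groups carry the strain label 129SV/Jae/C57BL6J. Per the labels' protocols, reprogramming took place in ES medium with the additives dox and AA, and fibroblasts were kept in MEF medium. The labels used here do not name the introduced factors. Nor do they say what the 3 replicates of a group have in common, so every p-value refers to the variation among the libraries at hand, part of which may be technical.

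SSEA1 is a carbohydrate antigen on the surface of mouse pluripotent cells. During reprogramming, fibroblast genes are shut off before the pluripotency network is switched on, and cells that gain SSEA1 early are known to be richer in future iPS cells. Between these ends cells pass through a period in which genes of neither the fibroblast nor the pluripotent cell can be high. The 62 genes fall into such a window, and their known roles are diverse. They include enzymes of lipid and aldehyde metabolism, ion channels, regulators of G protein signalling, secreted ligands, membrane proteins and a few transcription factors.

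The name "transient genes of SSEA1+ cells" was checked against the data. Of the 4 genes given as markers, Aldh3a1 (an aldehyde dehydrogenase), Alox15 (a lipoxygenase) and Acsbg1 (an enzyme that activates very long-chain fatty acids) met the rule. Ngfr, the low-affinity neurotrophin receptor, did not. It had 2.13, 2.02 and 1.01 CPM in MEF, 184, 111 and 147 CPM in d6 SSEA1+ cells, 202, 189.6 and 212 CPM in d9 SSEA1+ cells and 20.2, 19.5 and 36.6 CPM in iPS SSEA1+ cells, and the iPS level was too high for the rule. The genes were transient along the SSEA1+ series as the rule required, but they were not limited to SSEA1+ cells. In SSEA1- cells 56 of the 62 had a mean of at least 10 CPM at d6, 56 at d9 and 58 at d12. The median gene stood at 50.1 CPM in d6 SSEA1- cells and 62.9 CPM in d9 SSEA1- cells. The medians were 48.0 and 52.6 CPM in d6 and d9 SSEA1+ cells, the groups the rule selected on. Gene by gene, 41 of the 62 had a higher mean in SSEA1+ than in SSEA1- cells at d6, and 32 at d9. The median ratio of SSEA1+ to SSEA1- means, each plus 0.5 CPM, was 1.51 at d6 and 1.01 at d9. In bulk libraries, fewer cells that make an RNA and less RNA per cell cannot be told apart.

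Promoter sequence is shown for 3 of the genes because the 62 were chosen for a shared timing, and these 3 are among the 6 with the highest ratios in the rule. The windows run from 250 bases before to 50 bases after the gene's start in build GRCm38.p6 of RefSeq, which is not the build named for the counts (mm9). Capitals mark an octamer (ATGCAAAT or its reverse complement, a motif of POU factors such as Pou5f1) in Acsbg1, and Klf boxes (CCNCNCCC on either strand, neighbouring matches may overlap) in Shisa3 and Pllp. Acsbg1 lies at chr9:54661836-54662135 on the minus strand, Shisa3 at chr5:67607633-67607932 on the plus strand and Pllp at chr8:94696193-94696492 on the minus strand.
Acsbg1: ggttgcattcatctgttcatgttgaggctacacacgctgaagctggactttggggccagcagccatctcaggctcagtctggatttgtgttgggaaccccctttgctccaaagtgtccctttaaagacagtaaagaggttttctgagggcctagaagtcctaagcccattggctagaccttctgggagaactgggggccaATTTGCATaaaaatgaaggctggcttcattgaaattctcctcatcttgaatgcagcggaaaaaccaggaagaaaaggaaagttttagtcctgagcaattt
Shisa3: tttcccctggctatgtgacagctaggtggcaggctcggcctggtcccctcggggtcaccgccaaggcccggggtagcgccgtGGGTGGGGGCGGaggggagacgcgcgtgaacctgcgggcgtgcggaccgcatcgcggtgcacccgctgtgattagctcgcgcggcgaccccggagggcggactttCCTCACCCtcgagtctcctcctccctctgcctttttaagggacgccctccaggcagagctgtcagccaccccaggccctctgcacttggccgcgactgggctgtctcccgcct
Pllp: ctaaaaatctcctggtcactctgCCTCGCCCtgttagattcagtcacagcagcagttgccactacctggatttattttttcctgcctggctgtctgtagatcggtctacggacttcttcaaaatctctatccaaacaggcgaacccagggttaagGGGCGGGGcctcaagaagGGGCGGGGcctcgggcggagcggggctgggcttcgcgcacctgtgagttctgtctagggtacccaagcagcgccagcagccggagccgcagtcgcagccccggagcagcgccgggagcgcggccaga
The Acsbg1 window holds 1 octamer and no Klf box, and the Shisa3 and Pllp windows hold 3 Klf boxes each and no octamer.

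Of the 62 genes 40 had a promoter entry, and motif matches among them were counted beside those of all 27025 promoters in the same table. A Klf box stood in 29 of 40 (72.5%), against 51.9% of all promoters. The median GC content was 57.3% in the 40 and 52.7% over all, and a motif made mostly of C moves with GC content, whose part was not tested. The octamer stood in 2 of 40 (5%, Acsbg1 and Prx), against 1.97% of all. The Myc E-box CACGTG stood in 1 of 40 (2.5%), against 8.09%, the ETS core AGGAAG in 13 (32.5%), against 38.4%, and the AP-1 site TGANTCA in 2 (5%), against 8.97%. A match to GCCNNNGGC, a site of Tfap2 factors, stood in 10 of 40 (25%), against 18.5%, and TATAAA in 3 (7.5%), against 15.7%. These are matches of letters in a window and not binding sites.

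Libraries held 8.93 to 41.7 M (1e+06) reads in genes with a median of 23.2 M, so that 3 reads, the limit a count of 0 allows, were worth 0.0720 to 0.336 CPM. This limit covers counting error only, since amplified copies of a molecule were not told apart. The sorted groups went with their labels in marker lists. The 8 pluripotent markers summed to 4605 to 6529 CPM in iPS SSEA1+ cells, against 1.34 to 2.65 CPM in MEF, and the 8 fibroblast markers to 37.1 to 234.7 CPM in iPS SSEA1+ cells, against 56333 to 66755 CPM in MEF. Some libraries stood apart. In d12 SSEA1+ cells the lowest of the 3 libraries was replicate 1 for 61 of the 62 genes, and the highest was replicate 3 for 59. The 62 genes summed to 1179 CPM in replicate 1, 3355 in replicate 2 and 4811 in replicate 3 there, while the pluripotent markers summed to 4001, 3199 and 2233 CPM. In iPS SSEA1- cells replicate 3 was lowest for 46 of the 62 and had 2402 CPM of pluripotent markers, against 251.1 and 549.8 CPM in the others. Replicate 2 held macrophage markers, summed over 8 genes, in MEF (113.3 CPM) and in d6, d9, d12 and iPS SSEA1- cells (188.6, 256.1, 370.3 and 592.4 CPM). The other libraries of these groups had at most 39.4 CPM. In d3 SSEA1- cells replicate 2 had 41.7 CPM, against 19.4 and 9.76 CPM in the others. The part of these markers in the levels of the 62 genes was not tested.

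**Figure D1:**
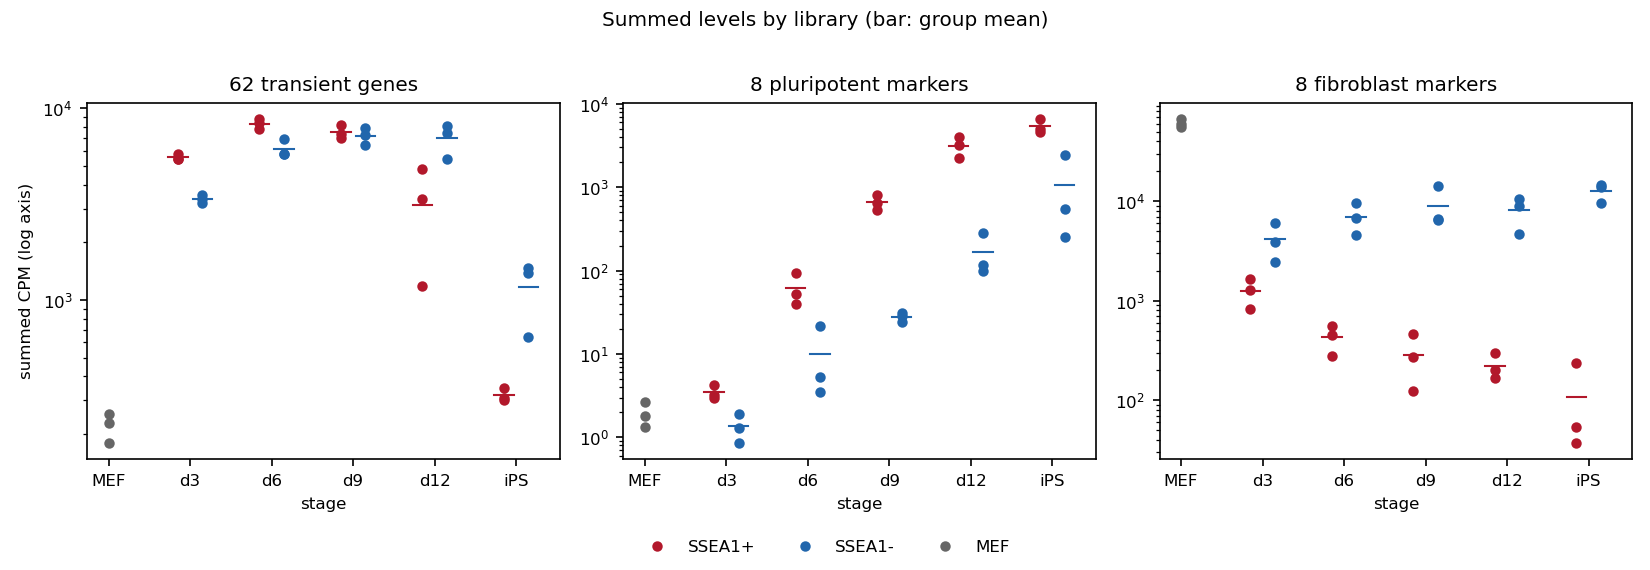
Summed CPM (log axis) of the 62 genes, of 8 pluripotent markers and of 8 fibroblast markers in each library by stage, for SSEA1+ cells, SSEA1- cells and MEF, with a bar at the group mean. The summed 62 genes are at 1179 to 4811 CPM in d12 SSEA1+ cells and 5465 to 8107 CPM in d12 SSEA1- cells, and the 3 d12 SSEA1+ libraries are spread widely.

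Along the SSEA1+ series the 62 genes summed to 179.2 to 254.4 CPM in MEF, 5446 to 5775 at d3, 7832 to 8769 at d6, 6965 to 8230 at d9, 1179 to 4811 at d12 and 299.4 to 345.3 at the iPS stage. The highest SSEA1+ mean was at d6 for 32 genes, at d9 for 24 and already at d3 for 6. The d3 mean was at a median of 48.2% of the mean of d6 and d9, with a range of 0.289 to 204.6%. At d12 the mean stood at a median of 33.5% of d9, with a range of 13.2 to 90.4%. Since d9 SSEA1+ cells entered the rule, a lower level after d9 is favoured by the choice of genes and is no finding. The SSEA1- series summed to 3196 to 3529 CPM at d3, 5746 to 6932 at d6, 6417 to 7921 at d9 and 5465 to 8107 at d12, and then to 643.0 to 1474 CPM at the iPS stage. Its highest mean was at d12 for 29 genes, at d9 for 19, at d6 for 9, at d3 for 4 and at the iPS stage for 1. The d12 SSEA1- mean was at a median of 100.3% of d9, with a range of 58.9 to 319.8%.

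**Figure D2:**
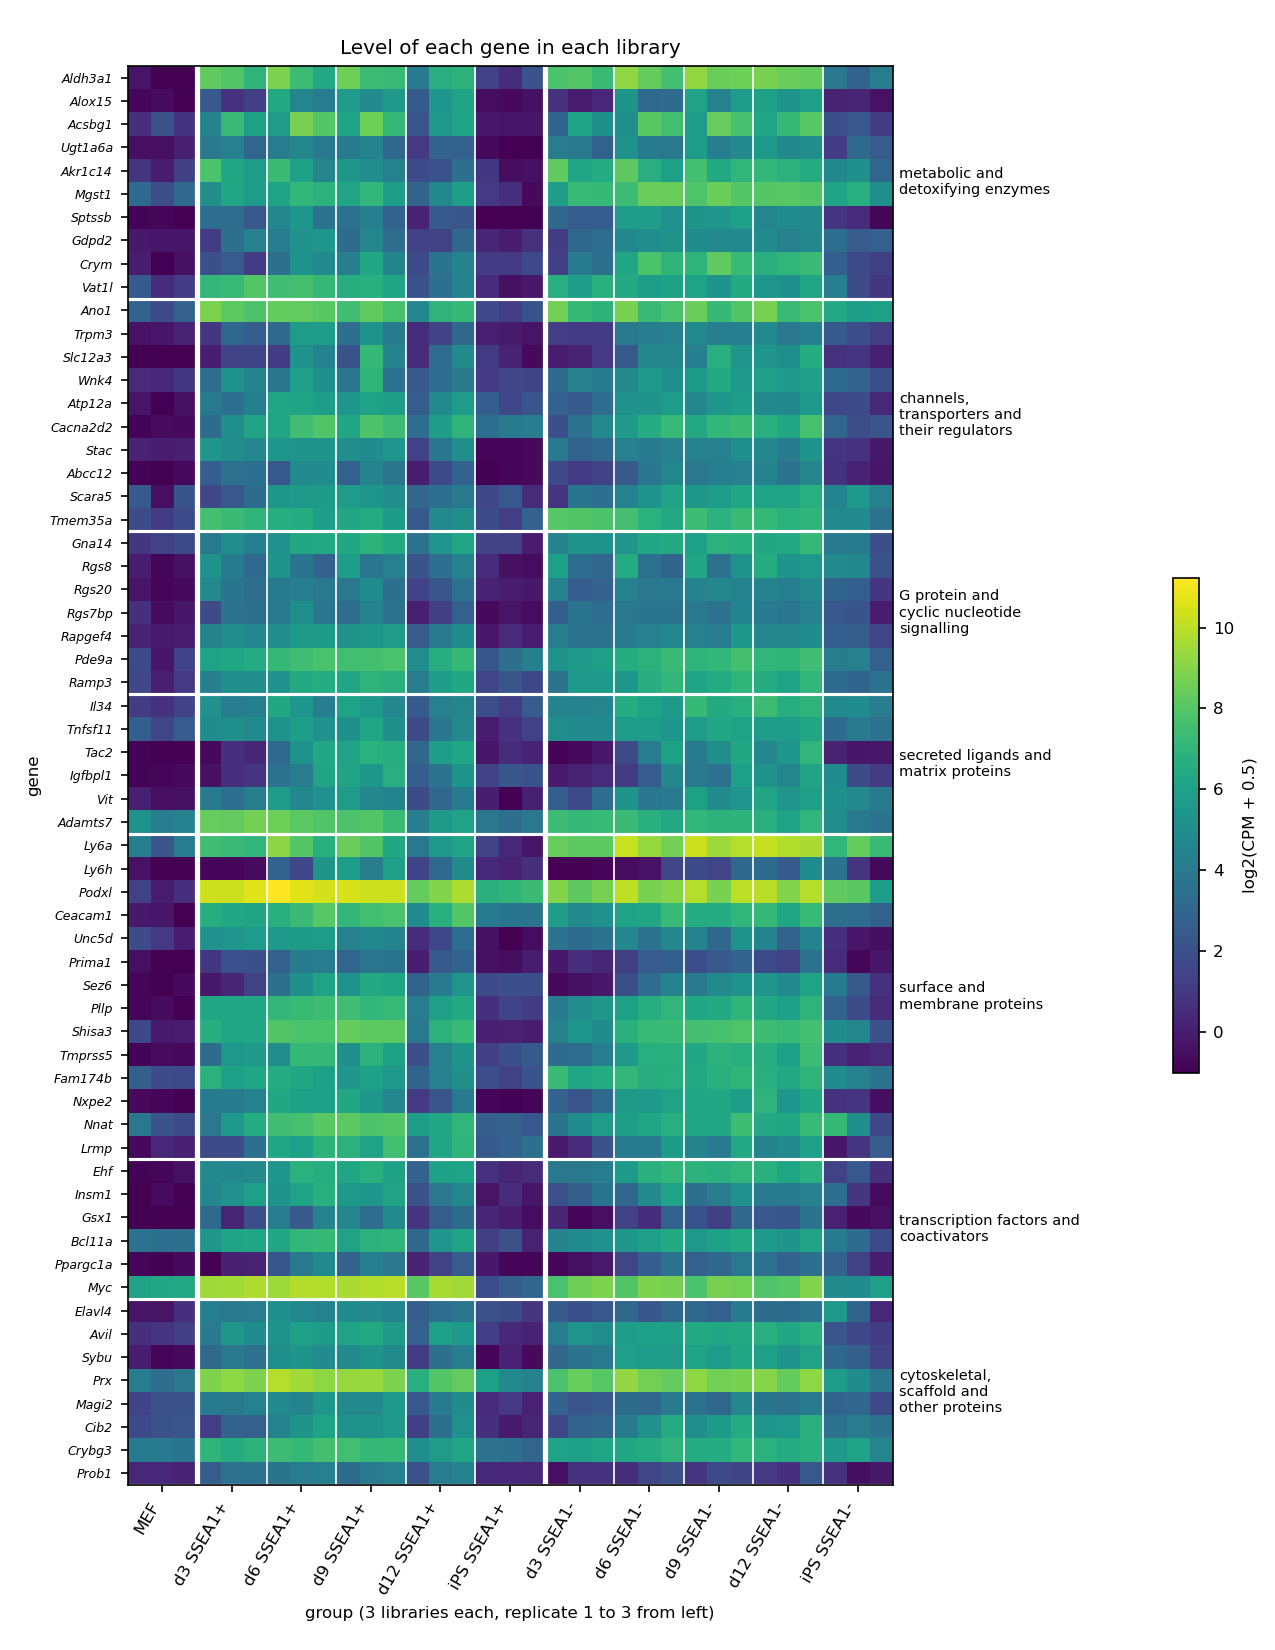
log2(CPM + 0.5) of the 61 named genes (rows, grouped by role) in each of the 33 libraries (columns), with SSEA1+ stages left of SSEA1- stages and MEF at the left. Rows are bright from d3 or d6 to d9 in SSEA1+ cells and stay bright to d12 in SSEA1- cells, while the first d12 SSEA1+ column is dark.

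At the edge of the rule the lower of the d6 and d9 means was 8.24 times the higher of the MEF and iPS means plus 0.5 CPM for Adamts7, 8.27 times for Igfbpl1 and 8.30 times for Elavl4. Just outside stood Cybrd1 at 7.84 times and Rfx4 at 7.68. The highest ratios inside were those of Shisa3 (136.0), Nxpe2 (87.2), Aldh3a1 (81.4), Acsbg1 (78.4), Pllp (70.6) and Alox15 (62.2).

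The tests below use groups that the rule did not use. The rule did use the neighbouring SSEA1+ stages d6, d9 and iPS. High d3 and low d12 levels in SSEA1+ cells may therefore be favoured by the choice of genes. How far this enters the sort, interaction and d12 over d3 results was not tested. Low levels in iPS SSEA1- cells may be favoured too, since the rule asked for low levels in iPS SSEA1+ cells and MEF. A gene was called higher or lower when the Benjamini-Hochberg adjusted p of edgeR's quasi-likelihood test over 17326 genes lay below 0.05 with a change of 2-fold or more, and all 62 genes passed the filter on low counts. Changes are log2 fold changes ± standard error, on a scale of normalised library totals, while levels are CPM in replicates 1, 2 and 3. The role groups were formed by hand with the values known, and genes that fill out a role group were named for their role.

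The first comparison set SSEA1+ against SSEA1- cells at d3, the earliest sort. Among the 62 genes, 11 were higher in SSEA1+ cells, where 2.76% of all genes were higher, and 0 were lower, where 3.91% of all genes were lower. The median change of the 62 was 0.94, against -0.03 over all genes. Without the adjustment 27 were higher and 1 lower at p under 0.05, for which the share of all genes was not computed. DESeq2 called 15 higher and 0 lower, and among all genes 1498 in either direction. Every SSEA1+ library stood above every SSEA1- library for 24 genes (12.9% of all genes), and below for 2 (19.8% of all). Among the 6 transcription factors and coactivators 3 were higher, among 14 surface and membrane proteins 3, among 10 channels and transporters 2, among 8 cytoskeletal and other proteins 2, and among 6 ligands and matrix proteins 1. The changes of the 10 metabolic enzymes, without a call, ran from -1.35 (Crym) to 1.84 (Alox15), and those of the 7 G protein genes from -0.54 (Gna14) to 1.02 (Rapgef4).

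Gsx1, a homeobox factor of the developing forebrain, had the largest change. It had 8.63, 0.692 and 3.302 CPM in d3 SSEA1+ cells, against 0.749, 0.0749 and 0.216 CPM in d3 SSEA1- cells, a change of 3.72 ± 1.00 (adjusted p = 0.017). The replicates differed widely and overlapped, since replicate 2 of SSEA1+ cells was below replicate 1 of SSEA1- cells, and replicate 2 of SSEA1- cells was under its limit of 3 reads. Insm1, a zinc finger factor of neuroendocrine cells, had 25.1, 36.6 and 60.7 CPM in d3 SSEA1+ cells and 3.57, 5.99 and 12.98 CPM in d3 SSEA1- cells, a change of 2.49 ± 0.81 (adjusted p = 0.045) with no overlap. Myc, a growth-promoting factor that is also one of the classical reprogramming factors, had 716, 736 and 869.5 CPM in d3 SSEA1+ cells and 208, 381 and 476 CPM in d3 SSEA1- cells, a change of 1.20 ± 0.39 (adjusted p = 0.044). All 3 SSEA1+ libraries were above all SSEA1- libraries, and the counts cannot tell an introduced copy of Myc from the cell's own gene.

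Podxl, a sialomucin of the cell surface, had 1252, 1239.7 and 1613 CPM in d3 SSEA1+ cells, against 496, 292 and 429 CPM in d3 SSEA1- cells, a change of 1.80 ± 0.47 (adjusted p = 0.014). The fractions were completely separated. Prob1, whose role is little known, had 5.52, 11.6 and 11.2 CPM in d3 SSEA1+ cells and 0.214, 1.198 and 1.18 CPM in d3 SSEA1- cells, a change of 3.49 ± 0.66 (adjusted p = 0.0014). Pllp, a membrane protein of myelin and epithelia whose promoter is shown above, had 80.02, 76.4 and 81.7 CPM in d3 SSEA1+ cells and 15.3, 31.3 and 44.5 CPM in d3 SSEA1- cells, a change of 1.46 ± 0.46 (adjusted p = 0.037). In both the groups did not overlap. The netrin receptor family gene Unc5d (2.03 ± 0.62, adjusted p = 0.032), the transporter gene Abcc12 (2.05 ± 0.67, adjusted p = 0.046) and the metalloprotease gene Adamts7 (1.25 ± 0.37, adjusted p = 0.027) were also higher, as were Stac and Magi2.

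These d3 calls lie close to the threshold. Left out in turn, single libraries brought the 11 calls to between 1 and 6, and without d3 SSEA1- replicate 2 only Prob1 was called. Among all genes these fits called 531 to 1117 in either direction, against 1155 with all libraries. Abcc12 and Unc5d lost the call without any 1 of the 6 libraries, Insm1, Myc and Pllp without 5 of them, Adamts7 without 4, and Gsx1 and Podxl without 3. Of the fibroblast markers 3 of 8 were lower in d3 SSEA1+ cells, which held 816.2 to 1645 CPM of them, against 2432 to 6093 CPM in d3 SSEA1- cells. Pluripotent markers summed to 2.96 to 4.25 CPM in d3 SSEA1+ cells and 0.856 to 1.92 CPM in d3 SSEA1- cells. The part of these in the d3 differences was not tested.

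By d12 the order had turned. Among the 62 genes 31 were lower in SSEA1+ than in SSEA1- cells and 1 was higher, where 18% of all genes were lower and 18% higher. The median change of the 62 was -1.36, against 0.06 over all genes, and 57 of the 62 changes were negative. Every SSEA1+ library was below every SSEA1- library for 36 genes (29.8% of all genes), and above for 0 (32.1% of all). The metabolic enzymes were lower in 8 of 10, the channels and transporters in 6 of 10, the ligands and matrix proteins in 4 of 6, the cytoskeletal and other proteins in 4 of 8, the G protein genes in 3 of 7 and the surface proteins in 5 of 14, with the predicted gene as the last of the 31. The 6 transcription factors and coactivators had no call, with changes from -1.80 (Ppargc1a) to 0.87 (Myc). With the replicate number as a block, 38 of the 62 were lower. Among them were 2 of these 6 factors (Ehf and Ppargc1a), 5 of 7 G protein genes and 8 of 10 channels and transporters. Among all genes the block called 6620 in either direction, against 6227 in the main fit.

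Among the metabolic enzymes, Aldh3a1 had 16.3, 105 and 120.3 CPM in d12 SSEA1+ cells, against 443, 353 and 325 CPM in d12 SSEA1- cells, a change of -2.20 ± 0.66 (adjusted p = 0.0074). All SSEA1+ libraries were below all SSEA1- libraries and replicate 1 was far below the other SSEA1+ libraries. Akr1c14, an aldo-keto reductase of steroid metabolism, had 2.99, 3.77 and 10.9 CPM in d12 SSEA1+ cells and 137, 115 and 91.5 CPM in d12 SSEA1- cells, a change of -4.27 ± 0.85 (adjusted p = 0.00022). Crym, a thyroid hormone binding protein, had 2.91, 12.6 and 22.04 CPM in d12 SSEA1+ cells and 104, 133 and 160.0 CPM in d12 SSEA1- cells, a change of -3.41 ± 0.71 (adjusted p = 0.00032). The groups of both were far apart. Akr1c14 has close paralogs, and reads that fitted several places stayed out of the counts, so its level may be too low.

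Acsbg1 depended on how the replicates were treated. It had 4.26, 48.7 and 67.8 CPM in d12 SSEA1+ cells and 75.4, 149 and 271 CPM in d12 SSEA1- cells, and its change of -2.05 ± 0.91 (adjusted p = 0.064) was not called. Every SSEA1+ library was below every SSEA1- library. Replicate 1 was the lowest Acsbg1 library of its group at every stage from d3 to d12 in both fractions, and with the replicate number as a block the change was -2.40 with an adjusted p of 0.00045, which was called. Alox15, by contrast, had 5.04, 42.3 and 70.3 CPM in d12 SSEA1+ cells and 61.5, 40.3 and 61.04 CPM in d12 SSEA1- cells, with overlapping groups and a change of -0.46 ± 0.70 (adjusted p = 0.60). Mgst1 (a microsomal glutathione transferase, -3.08 ± 0.58, adjusted p = 0.00012), Sptssb (a subunit of serine palmitoyltransferase, -3.06 ± 0.62, adjusted p = 0.0003), Ugt1a6a (a glucuronosyltransferase, -2.78 ± 0.62, adjusted p = 0.00068), Gdpd2 (-2.60 ± 0.61, adjusted p = 0.0011) and Vat1l (-2.08 ± 0.62, adjusted p = 0.0075) completed the 8 lower enzymes. In the annotation 50.3% of the exon bases of Ugt1a6a are shared with Ugt1a7c, so its count is uncertain.

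**Figure D3:**
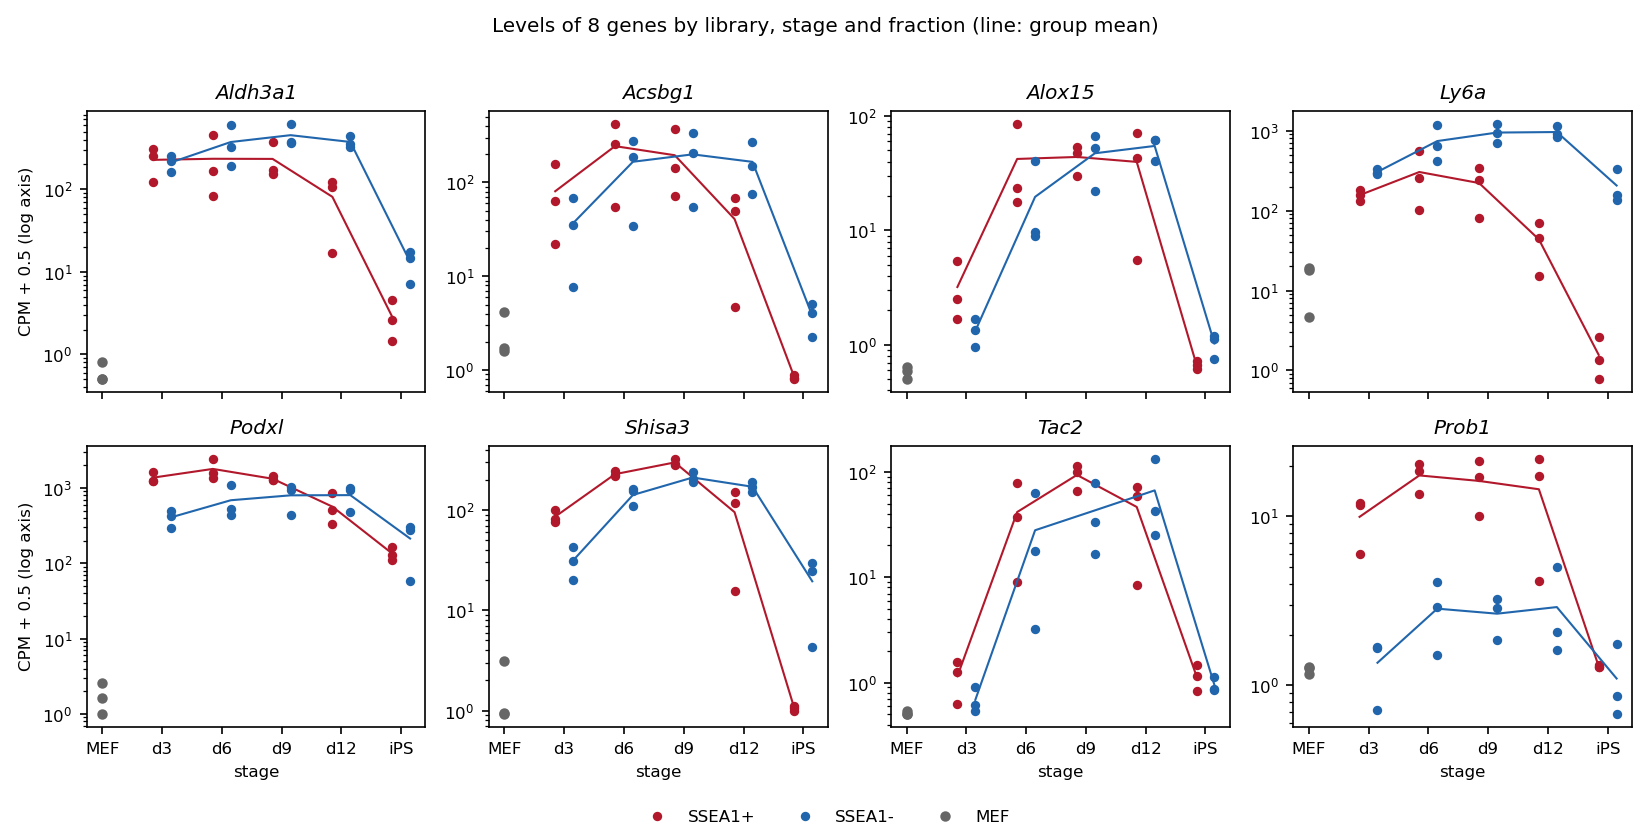
CPM + 0.5 (log axis) of 8 genes in every library by stage, for SSEA1+ cells, SSEA1- cells and MEF, with lines through the group means. The d12 SSEA1+ libraries of Ly6a, Aldh3a1 and Acsbg1 lie below the d12 SSEA1- libraries, while the d3 SSEA1+ libraries of Podxl and Prob1 lie above those of d3 SSEA1- cells.

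Among the surface proteins, Ly6a, the antigen known as Sca-1, had the largest change of the 62. It had 14.6, 45.03 and 69.7 CPM in d12 SSEA1+ cells, against 1157, 898 and 827 CPM in d12 SSEA1- cells, a change of -4.46 ± 0.71 (adjusted p = 1.9e-05). The groups were far apart. Genes of the Ly6 family are similar in sequence, and reads that fitted several places stayed out of the counts, so the Ly6a level may be too low. Nxpe2 had 1.61, 4.19 and 16.6 CPM in d12 SSEA1+ cells and 125, 42.6 and 77.1 CPM in d12 SSEA1- cells, a change of -3.46 ± 0.59 (adjusted p = 3.7e-05). Tmprss5, a membrane serine protease (-2.39 ± 0.64, adjusted p = 0.003), Fam174b (-2.36 ± 0.43, adjusted p = 7.7e-05) and Unc5d (-1.92 ± 0.63, adjusted p = 0.013) were lower too, and groups were apart for each of these except Unc5d. Podxl, which was higher in SSEA1+ cells at d3, had 328, 507 and 855 CPM in d12 SSEA1+ cells and 998, 479 and 927 CPM in d12 SSEA1- cells, with overlap and a change of -0.48 ± 0.46 (adjusted p = 0.40).

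Of the channels, Tmem35a, a chaperone of acetylcholine receptors, had 5.04, 26.8 and 32.96 CPM in d12 SSEA1+ cells, against 148, 113 and 126 CPM in d12 SSEA1- cells, a change of -2.56 ± 0.49 (adjusted p = 0.00013) with no overlap. Scara5, a ferritin receptor (-2.78 ± 0.69, adjusted p = 0.0016), the cation channel gene Trpm3 (-2.43 ± 0.61, adjusted p = 0.002), Abcc12 (-2.50 ± 0.68, adjusted p = 0.0037), the kinase gene Wnk4 (-2.45 ± 0.65, adjusted p = 0.0029) and the calcium-activated chloride channel gene Ano1 (-1.40 ± 0.53, adjusted p = 0.029) were lower. Of the ligands, Il34, a ligand of the receptor Csf1r, had 5.01, 19.5 and 24.3 CPM in d12 SSEA1+ cells and 166, 99.8 and 125 CPM in d12 SSEA1- cells, a change of -2.98 ± 0.53 (adjusted p = 6.8e-05). Tnfsf11, the osteoclast cytokine RANKL (-2.10 ± 0.47, adjusted p = 0.00073), Vit (-2.69 ± 0.59, adjusted p = 0.00056) and Adamts7 (-1.16 ± 0.37, adjusted p = 0.011) were lower, and Tac2, the neurokinin B precursor, was not called (-0.53 ± 0.82, adjusted p = 0.61).

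The G protein genes that were lower were Rgs7bp, which binds and anchors RGS proteins, Rgs20, an inhibitor of G protein signalling, and Gna14, a G protein alpha subunit. Rgs7bp had 0.5604, 1.98 and 6.28 CPM in d12 SSEA1+ cells, against 15.2, 13.6 and 20.9 CPM in d12 SSEA1- cells, a change of -2.51 ± 0.68 (adjusted p = 0.0034) with no overlap. Rgs20 had a change of -1.89 ± 0.56 (adjusted p = 0.0071) and Gna14 of -1.25 ± 0.50 (adjusted p = 0.041). Of the cytoskeletal and other proteins, Sybu, an adaptor of microtubule transport, had 1.68, 10.9 and 18.6 CPM in d12 SSEA1+ cells and 60.5, 40.2 and 66.7 CPM in d12 SSEA1- cells, a change of -2.42 ± 0.52 (adjusted p = 0.00044) with no overlap. Avil, an actin-binding protein (-1.31 ± 0.46, adjusted p = 0.02), Cib2 (-1.99 ± 0.67, adjusted p = 0.015) and Prx, which encodes periaxin of myelinating Schwann cells (-1.07 ± 0.40, adjusted p = 0.027), were lower as well. In the annotation 15.8% of the exon bases of Cib2 lie opposite Sh2d7. For Gdpd2 and Fam174b, given as lower above, 17.3% and 16.2% of the exon bases lie opposite another gene. Of the transcription factors, Insm1, which was higher in SSEA1+ cells at d3, had 3.62, 14.5 and 24.4 CPM in d12 SSEA1+ cells and 15.5, 16.7 and 20.7 CPM in d12 SSEA1- cells, with overlap and a change of -0.31 ± 0.78 (adjusted p = 0.76).

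The 1 gene that was higher in d12 SSEA1+ cells was Prob1. It had 3.66, 16.9 and 21.4 CPM in d12 SSEA1+ cells, against 1.56, 1.13 and 4.54 CPM in d12 SSEA1- cells, a change of 2.54 ± 0.62 (adjusted p = 0.0016). Replicate 1 of SSEA1+ cells lay below replicate 3 of SSEA1- cells. Ceacam1 (0.12 ± 0.46, adjusted p = 0.85), Lrmp (0.88 ± 0.82, adjusted p = 0.39), Magi2 (0.30 ± 0.46, adjusted p = 0.61) and Myc (0.87 ± 0.39, adjusted p = 0.062) had positive changes that were not called. The Myc level was 278, 796 and 743 CPM in d12 SSEA1+ cells and 233, 268 and 504 CPM in d12 SSEA1- cells, and only replicate 1 of SSEA1+ cells reached into the range of SSEA1- cells.

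Without d12 SSEA1+ replicate 1 the d12 sort gave 23 lower genes and 2 higher, Prob1 and Myc. Leaving out other single libraries gave 26 to 41 lower. Among all genes 5434 were called in either direction without d12 SSEA1+ replicate 1, against 6227 with all libraries. The calls of Adamts7, Ano1, Prx and Unc5d were lost without that library, and the cytoskeletal group then had 1 of 8 lower. The d12 fractions also differed in markers of other cell types. Fibroblast markers were lower in SSEA1+ cells for 8 of 8, with sums of 165.4 to 297.7 CPM in d12 SSEA1+ cells against 4692 to 10657 CPM in d12 SSEA1- cells. Pluripotent markers were higher for 8 of 8, with 2233 to 4001 CPM in d12 SSEA1+ cells and 99.9 to 283.1 CPM in d12 SSEA1- cells, and epithelial markers were higher for 8 of 8, with 1346 to 2039 CPM in d12 SSEA1+ cells, against 352.4 to 468.2 CPM in d12 SSEA1- cells. Macrophage markers summed to 25.9 to 36.7 CPM in d12 SSEA1+ cells and to 23.2, 370.3 and 39.4 CPM in d12 SSEA1- replicates 1, 2 and 3. These sums overlapped, and 1 of 8 was called lower in SSEA1+ cells. In d12 SSEA1+ cells the means of Ptprc and Tyrobp were under 0.1 CPM. The mean of Cd68 was 27.8 CPM there, against 20.9 CPM in d12 SSEA1- cells. The part of these cell types in the differences of the 62 genes was not tested.

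**Figure D4:**
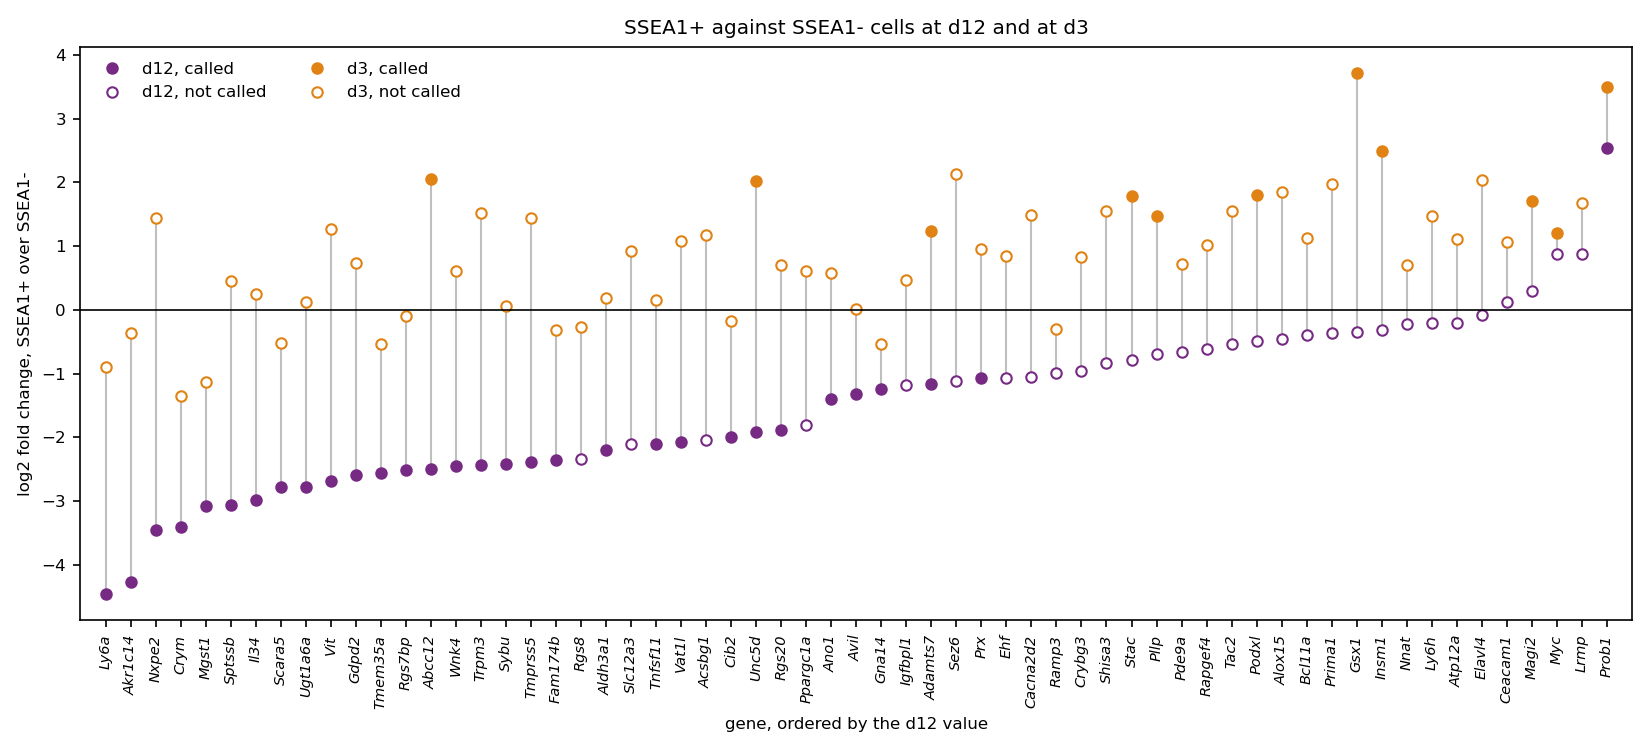
log2 fold change of SSEA1+ over SSEA1- cells for each of the 61 named genes at d12 and at d3, ordered by the d12 value, with filled points for called changes. Grey lines join the 2 values of a gene, and the d12 value is the lower of the 2 for each gene.

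The change of the sort difference between the days was tested as an interaction. Of the 62 genes 28 had a lower SSEA1+ over SSEA1- ratio at d12 than at d3 and 0 had a higher one, where 7.93% of all genes were lower and 6.21% higher. All 62 values were negative, with a median of -2.27, against 0.11 over all genes, of which 46.0% were negative. At an unadjusted p under 0.05, 46 were lower and 0 higher, for which the share of all genes was not computed. DESeq2 called 35 lower and 0 higher, and among all genes 2920 in either direction. The sign differed between days for 44 genes, which were positive at d3 and negative at d12, while 13 were negative at both days and 5 positive at both. Abcc12, Adamts7 and Unc5d were called higher at d3 and lower at d12. Unc5d had 1.01, 2.62 and 9.85 CPM in d12 SSEA1+ cells and 21.6, 6.88 and 22.2 CPM in d12 SSEA1- cells, against 35.7, 41.1 and 52.4 CPM in d3 SSEA1+ cells and 11.5, 9.17 and 12.1 CPM in d3 SSEA1- cells, an interaction of -3.94 ± 0.88 (adjusted p = 0.0038). Nxpe2 had the largest interaction, -4.89 ± 0.80 (adjusted p = 0.00039), followed by Abcc12 with -4.55 ± 0.96 (adjusted p = 0.0027). Without d12 SSEA1+ replicate 1, in which the 62 genes were low, the 28 became 16. Among all genes the calls in either direction fell from 2450 to 1536 in the same fit. Akr1c14, Gsx1, Pllp, Podxl, Prx, Shisa3 and Tmem35a then lost the call. Of these, Podxl and Prx lost it without that library only, and each of the others also without some other library.

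To see which fraction moved, d12 was set against d3 within each fraction. In SSEA1+ cells 7 genes were higher and 21 lower at d12, where 18.7% of all genes were higher and 10.5% lower, and the median change was -0.92, against 0.04 over all genes. In SSEA1- cells 33 were higher and 1 lower at d12, where 16.3% of all genes were higher and 6.12% lower, with a median of 1.39, against 0.05. For 4 genes (Abcc12, Gdpd2, Nxpe2 and Sptssb) the call was lower in SSEA1+ and higher in SSEA1- cells. In SSEA1+ cells the calls of Abcc12 and Nxpe2 held in 2 of 6 fits that each left out 1 library, and were lost without d12 SSEA1+ replicate 1 or replicate 2 and without d3 SSEA1+ libraries. Nxpe2 had 1.61, 4.19 and 16.6 CPM in d12 and 15.5, 15.5 and 20.05 CPM in d3 SSEA1+ cells, a change of -1.53 ± 0.55 (adjusted p = 0.029). In SSEA1- cells it had 125, 42.6 and 77.1 CPM at d12 and 6.63, 4.38 and 8.56 CPM at d3, a change of 3.36 ± 0.58 (adjusted p = 0.00017) with no overlap. In SSEA1+ cells the groups overlapped, since d12 replicate 3 lay above d3 replicates 1 and 2. Cell type markers moved in the same comparisons. Pluripotent and epithelial markers were higher at d12 for 8 of 8 each in SSEA1+ cells (medians 9.73 and 5.67) and for 8 of 8 each in SSEA1- cells (medians 6.997 and 5.42). Neural crest markers were higher for 6 of 8 in SSEA1+ and 7 of 8 in SSEA1- cells, and neuron and astrocyte markers for 5 of 8 (1 lower) and 6 of 8. Keratinocyte markers were higher for 5 of 8 and 3 of 8, and trophoblast markers for 4 of 7 tested in each. Endothelial markers were higher for 5 of 8 and 6 of 8, with 1 lower in SSEA1+ cells. Their SSEA1+ sums were 193.1 to 218.1 CPM at d3 and 91.8 to 102.5 CPM at d12. Fibroblast markers were higher for 2 and lower for 3 in SSEA1+ cells, and 3 and 2 in SSEA1- cells. Of 8 macrophage markers 1 was higher in SSEA1+ cells. The part of these cell types in the changes of the 62 genes was not tested.

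The largest falls in SSEA1+ cells were those of Akr1c14 and Vat1l. Akr1c14 had 2.99, 3.77 and 10.9 CPM in d12 SSEA1+ cells and 216, 77.97 and 51.9 CPM in d3 SSEA1+ cells, a change of -4.67 ± 0.87 (adjusted p = 0.00013). Vat1l had 3.74, 10.8 and 21.7 CPM at d12 and 138, 159 and 253 CPM at d3, a change of -4.23 ± 0.68 (adjusted p = 2.4e-05). Both separated the days completely, and so did Adamts7 (-3.28 ± 0.40, adjusted p = 6.0e-07), Unc5d (-3.59 ± 0.66, adjusted p = 0.00012) and Tmem35a (-3.22 ± 0.50, adjusted p = 1.5e-05). The last was also the 1 gene lower at d12 in SSEA1- cells (-1.19 ± 0.46, adjusted p = 0.046), a call that was lost when any 1 of the 6 libraries was left out.

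A group of 7 genes was higher at d12 than at d3 in both fractions, namely Alox15, Igfbpl1, Lrmp, Ly6h, Ppargc1a, Sez6 and Tac2. All were at or below 10.7 CPM in every d3 library. Tac2 had 7.85, 58.001 and 71.8 CPM in d12 SSEA1+ cells, against 0.122, 1.07 and 0.755 CPM in d3 SSEA1+ cells, a change of 5.97 ± 1.08 (adjusted p = 9.7e-05). In SSEA1- cells it had 24.7, 42.1 and 132 CPM at d12 and 0.0357, 0.112 and 0.408 CPM at d3, a change of 8.06 ± 1.19 (adjusted p = 4.3e-05). Alox15 had changes of 3.45 ± 0.78 (adjusted p = 0.00093) in SSEA1+ and 5.76 ± 0.88 (adjusted p = 5.4e-05) in SSEA1- cells, and Sez6, a neuronal membrane protein, 3.98 ± 0.83 (adjusted p = 0.00041) and 7.23 ± 0.97 (adjusted p = 1.5e-05). For Tac2, replicates 1 and 2 of d3 SSEA1- cells were at or under 3 reads, so the size of its fitted change in SSEA1- cells is uncertain. Ly6h had 9.07, 4.94 and 30.2 CPM in d12 and 0, 0 and 0.07196 CPM in d3 SSEA1- cells. The d3 values come from at most 3 reads a library, and no fold is given.

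The counts within SSEA1+ cells moved with the scaling and with 1 library. Without d12 SSEA1+ replicate 1, 11 genes were higher and 9 lower, and Abcc12, Aldh3a1, Ly6a, Nxpe2 and Podxl lost their calls. Among all genes that fit called 4589 in either direction, against 5071 with all libraries. With total counts in place of TMM normalisation, 9 were higher and 12 lower. That scaling moved the median of all genes in the same comparison to 0.32 from 0.04 on the log2 scale. Acsbg1 in SSEA1- cells had 75.4, 149 and 271 CPM at d12 and 7.17, 67.01 and 34.8 CPM at d3, a change of 1.97 ± 0.91 (adjusted p = 0.091) that was not called, and with the replicate block 2.32 with an adjusted p of 0.0012, which was called.

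The last stage was compared within the SSEA1- fraction, whose iPS libraries did not enter the rule. The rule did ask for low levels in iPS SSEA1+ cells, the other fraction of this stage, and in MEF. Lower levels in iPS SSEA1- cells may therefore be favoured by the choice of genes, and how far was not tested. Of the 62 genes 49 were lower in iPS than in d12 SSEA1- cells and 0 were higher, where 2.5% of all genes were lower and 4.72% higher. The median change was -2.67, against 0.11 over all genes. At an unadjusted p under 0.05, 58 were lower and 0 higher, for which the share of all genes was not computed. DESeq2 called 52 lower and 0 higher, and among all genes 1527 in either direction. Tac2 had 0.629, 0.3495 and 0.366 CPM in iPS SSEA1- cells, against 24.7, 42.1 and 132 CPM in d12 SSEA1- cells, a change of -7.17 ± 1.14 (adjusted p = 0.00028). Tmprss5 had 1.05, 0.641 and 0.915 CPM in iPS SSEA1- cells and 98.7, 62.1 and 165 CPM in d12 SSEA1- cells, a change of -6.91 ± 0.81 (adjusted p = 1.2e-05), and Alox15 had 0.629, 0.699 and 0.256 CPM in iPS and a change of -6.69 ± 0.94 (adjusted p = 0.0001). The groups of all 3 were apart. Acsbg1 (-5.67 ± 1.09, adjusted p = 0.0019), Aldh3a1 (-4.82 ± 0.74, adjusted p = 0.00023), Pllp (-4.66 ± 0.53, adjusted p = 8.9e-06) and Shisa3, an inhibitor of Wnt and FGF signalling (-3.20 ± 0.59, adjusted p = 0.0013), were lower as well.

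Elavl4, a neuronal RNA-binding protein, was the 1 gene with a positive change. It had 46.5, 7.22 and 0.842 CPM in iPS SSEA1- cells, against 9.52, 9.48 and 12.2 CPM in d12 SSEA1- cells, a change of 0.70 ± 0.66 (adjusted p = 0.58). Replicate 1 was the high library. It was the highest iPS SSEA1- library of Nnat too, an imprinted gene of neurons, with 146, 33.3 and 2.598 CPM in iPS SSEA1- cells and 83.6, 78.8 and 155 CPM in d12 SSEA1- cells, a change of -0.90 ± 0.74 (adjusted p = 0.51). The 8 neuron and astrocyte markers summed to 243.2 CPM in that library and to 109.2 and 128.9 CPM in the others, and their part was not tested. Fibroblast markers summed to 9515 to 14410 CPM in iPS SSEA1- cells and 4692 to 10657 CPM in d12 SSEA1- cells. Pluripotent markers were higher in iPS SSEA1- cells for 7 of 8, with a median of 2.68, and summed to 251.1 to 2402 CPM in iPS SSEA1- cells, against 99.9 to 283.1 CPM in d12 SSEA1- cells. The part of these markers in the 49 lower genes was not tested.

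Within SSEA1- cells the mean of d6 and d9 was tested over the mean of d3 and d12. A gene that is low at d3 and level or rising afterwards can also give a positive value. The highest SSEA1- mean was at d12 for 29 of the 62 genes, and the median d12 mean was 100.3% of d9. A positive value is therefore no sign of a peak at d6 and d9. Of the 62 genes 2 were higher, Crym and Tac2, and 0 lower, where 0.208% of all genes were higher and 0.0231% lower. The median change was 0.67, against 0.00 over all genes. With the replicate number as a block 10 were higher and 0 lower, and DESeq2 called 13 and 0, so the count depends on the fit. Among all genes the block called 120 in either direction and DESeq2 190, against 40 in the main fit. Crym and Tac2 each kept the call in 1 of 12 fits without a library. At an unadjusted p under 0.05, 24 were higher and 0 lower, for which the share of all genes was not computed. Crym had 75.7, 217 and 130.3 CPM in d6 and 125, 299.8 and 151 CPM in d9 SSEA1- cells, against 1.997, 15.4 and 10.7 CPM in d3 and 104, 133 and 160.0 CPM in d12 SSEA1- cells, a change of 2.19 ± 0.47 (adjusted p = 0.049). Its d12 level was within the range of d6 and d9, and d3 was the low day. Tac2 had 2.71, 17.3 and 62.1 CPM in d6 and 16.2, 32.8 and 78.6 CPM in d9 SSEA1- cells, which overlapped with d12, and a change of 3.14 ± 0.69 (adjusted p = 0.049). The d12 SSEA1- mean of Tac2 was 155.5% of its d9 mean.

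Relatives of the marker genes were counted beside the share of all genes, which was 2.76% higher and 3.91% lower at d3 and 18% higher and 18% lower at d12. Of 19 aldehyde dehydrogenases tested, 2 were lower in d3 SSEA1+ than SSEA1- cells, and 2 were higher and 3 lower at d12. The median change was -0.21 at d3, against -0.03 over all genes, and -0.14 at d12, against 0.06 over all genes. Beside Aldh3a1, Aldh3b1 was lower at d12 (-3.06 ± 0.59, adjusted p = 0.00015) and Aldh3b2 higher (2.95 ± 0.68, adjusted p = 0.0017). Of 15 lipoxygenases, cyclooxygenases and related lipid enzymes, 3 were lower at d3, and 1 was higher and 7 lower at d12, with medians of -0.95 at d3 and -0.46 at d12. The phospholipase gene Pla2g4a was lower at d12 (-3.32 ± 0.36, adjusted p = 1.7e-07) and at d3 (-2.05 ± 0.33, adjusted p = 0.00056), as was the cyclooxygenase gene Ptgs2 (-4.42 ± 0.87, adjusted p = 0.0002 at d12 and -2.35 ± 0.78, adjusted p = 0.049 at d3). Of 16 acyl-CoA synthetases 2 were higher and 1 lower at d12, with medians of 0.38 at d3 and 0.11 at d12, and Slc27a2 was among the higher (4.50 ± 0.65, adjusted p = 7.7e-06). Of 16 genes of glutathione and oxidative stress, 2 were lower at d3, and 2 were higher and 3 lower at d12, with medians of -0.27 and -0.15. At d12 the shares of aldehyde dehydrogenases, acyl-CoA synthetases and glutathione genes called in either direction were close to or below those of all genes.

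Of 12 neurotrophins and receptors, 2 were higher and 2 lower at d3, and 1 was higher and 5 lower at d12, where 2.76% of all genes were higher and 3.91% lower at d3, and 18% each at d12. The list medians were -1.17 at d3 and -1.71 at d12, against -0.03 and 0.06 over all genes. Ngfr was called higher at both days. It had 127, 42.9 and 102 CPM in d3 SSEA1+ cells and 22.2, 11.2 and 30.9 CPM in d3 SSEA1- cells, a change of 2.17 ± 0.51 (adjusted p = 0.0073). At d12 it had 53.5, 110.3 and 100.4 CPM in SSEA1+ cells and 33.6, 20.1 and 54.5 CPM in SSEA1- cells, a change of 1.32 ± 0.50 (adjusted p = 0.03). Replicate 1 of SSEA1+ cells lay under replicate 3 of SSEA1- cells at d12, and the interaction of -0.85 ± 0.69 (adjusted p = 0.43) was not called. Bdnf, which encodes one of its ligands, was lower in d12 SSEA1+ cells (-3.99 ± 0.53, adjusted p = 2.2e-06). The 4 classical reprogramming factors had 3 higher at each day, with medians of 1.93 and 2.07. Sox2 (3.44 ± 0.73, adjusted p = 0.00043 at d12 and 3.74 ± 0.74, adjusted p = 0.0022 at d3) and Klf4 (1.63 ± 0.37, adjusted p = 0.00073 and 2.34 ± 0.38, adjusted p = 0.00052) were higher at both, Pou5f1 at d12 and Myc, one of the 62, at d3. For each of these 4 factors the counts cannot tell an introduced copy from the cell's own gene.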

How the data were processed

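Poly-A RNA of 33 libraries (3 in each of 11 groups) was sequenced from a stranded kit, per the labels' protocols. The deposited values are raw read counts per gene, which the submitters' processing notes tie to mm9, STAR 2.3.0, Picard 1.100 and HTSeq 0.6.0. Deposited file names mention unstranded counting, in which antisense reads are added to a gene's own. For the annotation release, nothing was stated in the sources used here. Reads without a feature (4.42 to 15.5%), ambiguous (2.41 to 3.15%) or not unique (14.9 to 27.2%) stayed out of library totals and tests. No pair of replicates agreed within sampling noise (lowest chi-square per degree of freedom 13.1 over 33 pairs).

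Levels are CPM by total counts and are not per length, so they are compared within a gene. Tests used edgeR 4.0.16 in R 4.3.3 (quasi-likelihood, robust, TMM, filterByExpr) in 1 model of all 11 groups, with 22 residual degrees of freedom and Benjamini-Hochberg adjustment over 17326 genes. Standard errors were derived from each log2 fold change and its F statistic. The code was tested on simulated counts. Alternatives were DESeq2 1.42.0, total counts, no filter, only the compared groups, the replicate block and leaving out each library. Motifs and exon overlaps came from RefSeq and GENCODE tables of another build. Of the 62 genes 20 share exon bases with another gene, 4 of them at least 10%.

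Replicate numbers come from the labels. Same-numbered libraries deviated together (r above 0.1 for every pair, 0.18 at the lowest) in the d3 sort, the d12 sort, d12 over d3 SSEA1- cells, iPS over d12 SSEA1- cells and the middle days of SSEA1- cells.

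The members and the lists were chosen with earlier results of these data known. Named genes were the 4 markers, the 10 members with the highest d6 and d9 SSEA1+ levels, the 6 with the largest rule ratios, up to 4 called increases and 4 decreases with the largest change in each comparison, and the 3 on either side of the rule. Related genes were named when called, up to 3 per list. Genes that this rule reaches but that are withheld are counted and not reported here.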

Additional observations from a re-analysis of the deposited data

Results flagged for a closer look

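For 15 named genes the difference between SSEA1+ and SSEA1- cells itself changed from d3 to d12, by the interaction term of edgeR's quasi-likelihood model, and each is given as the d12 difference minus the d3 difference on the log2 scale. Among the surface proteins the values were -4.89 for Nxpe2, -3.94 for Unc5d, -3.83 for Tmprss5, -3.56 for Ly6a, -2.39 for Shisa3, -2.28 for Podxl and -2.16 for Pllp. Among the channels and transporters they were -4.55 for Abcc12 and -2.03 for Tmem35a. The transcription factor gene Gsx1 had -4.07, the matrix gene Vit -3.96, the metalloprotease gene Adamts7 -2.41 and the myelin gene Prx, which encodes periaxin, -2.03. The enzyme gene Akr1c14 had -3.91 and Vat1l -3.16. All 15 were lower at d12, as was the value of each of the other members, and d12 SSEA1+ replicate 1, the lowest library for 61 of the 62 genes, enters every one of them.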

How the results depend on the processing

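No fold change of a called gene among the named genes changed its sign under a setting that was run, but for d12 over d3 SSEA1+ cells the balance of calls turned without d12 SSEA1+ replicate 1, with 11 higher and 9 lower, against 7 higher and 21 lower with all libraries. The rule found 62 genes, against 148 at 4-fold, 30 at 16-fold, 72 at 5 CPM, 49 at 20 CPM, 58 with TMM scaling, 65 without the prefixes, and 57 to 68 without single libraries. For counts that moved by over 1.5 times the cause was not tested. The number of calls among all genes changed under these settings as well. In the d3 sort the 11 higher genes became 7 with total counts, 5 without the filter and 1 to 6 on leaving out a library. In the d12 sort the 31 lower genes became 23 to 41 on leaving out a library, and the 1 higher gene became 1 to 2. For d12 over d3 SSEA1+ cells the 7 higher became 11 with DESeq2 and 6 to 11 on leaving out a library, and the 21 lower became 12 with total counts, 12 with only the compared groups, 14 without the filter and 9 to 29 on leaving out a library. For d12 over d3 SSEA1- cells the 33 higher became 25 to 33 on leaving out a library, and the 1 lower became 0 with total counts, without the filter and with DESeq2, and 0 to 1 on leaving out a library. For iPS over d12 SSEA1- cells the 49 lower became 36 with only the compared groups and 38 to 51 on leaving out a library. For the middle days in SSEA1- cells the 2 higher became 0 with total counts, 0 without the filter, 10 with the replicate block, 9 with only the compared groups, 13 with DESeq2 and 0 to 4 on leaving out a library. For the change of the sort difference the 28 lower became 16 to 41 on leaving out a library. With the replicate block the other counts were 14 higher (d3 sort), 38 lower and 1 higher (d12 sort), 35 higher and 1 lower (d12 over d3 SSEA1- cells) and 51 lower (iPS over d12 SSEA1- cells). In the same order the block called 1524, 6620, 4263 and 1615 of all genes in either direction. The main fit called 1155, 6227, 3878 and 1250. Replicate numbers did not pair all libraries for d12 over d3 SSEA1+ cells (r of 0.095 at the lowest) and for the change of the sort difference (0.025). There the block gave 25 lower and 9 higher, and 36 lower. It called 5326 and 2894 of all genes in either direction there, against 5071 and 2450 in the main fit. Of 93 called results of named genes 35 lost the call under at least 1 setting. Among values of these results under other settings 424 kept the call and 41 lost it, and on leaving out a library 529 kept it and 131 lost it. Folds of genes near the limit of 3 reads in d3 SSEA1- cells, such as Tac2 and Gsx1, are uncertain at this depth, and none is given for Ly6h there.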
